A study of Mus musculus with 2 samples.

Results

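Type 2 conventional dendritic cells (cDC2) from mouse CT-2A gliomas are described here, in tumours grown in wildtype mice and in Glut5 KO mice. CT-2A is a mouse glioma line, and Glut5, encoded by Slc2a5, is the main membrane transporter of fructose. Each genotype was 1 droplet library of CD45+ cells taken with magnetic beads from tumours 14 days after implantation into the brain. The host mice carried the genotype, and the labels state no treatment. The series' design text has knockdown for what the labels call KO, and each title names a single mouse. Both libraries nevertheless held cells with Xist and no Y-linked transcript and cells with Y-linked transcripts and no Xist, called female and male cells below. No age, number of pooled mice or extent of the deletion is stated in the labels.

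The cells were chosen by measured transcripts. Each had at least 2 unique molecular identifiers (UMIs, the counted transcript molecules) of Cd209a and Flt3 together, and at least 200 UMIs per 10000 of 4 class II antigen presentation genes, namely Cd74, H2-Eb1, H2-Aa and H2-Ab1. At most 1 UMI was allowed of Xcr1 and Clec9a together, of Ccr7 and Fscn1 together and of Siglech, the markers of the other dendritic cells. No UMI of Cd3e, Cd3d, Cd3g or Cd79a was allowed, and the complement C1q genes had to stay under 20 UMIs per 10000. Of 11473 wildtype barcodes with at least 300 genes and under 10% mitochondrial UMIs, 136 met the rule, and of 12112 Glut5 KO barcodes, 136 met it. They held 1183785 and 1297480 UMIs, with medians of 8018.5 and 9197.5 per cell (range 2578 to 20558 and 974 to 21292). With 1 library per genotype there is no replicate and no test, so genotype, mouse and library cannot be told apart in any difference given below. Intervals in brackets are exact 95% intervals and cover counting error only.

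Conventional dendritic cells arise from bone marrow precursors that depend on the growth factor Flt3 ligand and its receptor Flt3, and their type 2 branch takes up antigen and presents it on class II molecules, mainly to CD4 T cells. cDC2 carry C-type lectins such as CD209a and CD301 (Clec10a, Mgl2), which bind sugars on antigens and microbes, and depend on the transcription factor Irf4, whereas type 1 cells (cDC1) depend on Irf8 and present antigen to CD8 T cells. Inflamed cDC2 and cells derived from monocytes share many transcripts, among them the Fc receptor gene Fcgr1. Type I interferon acts through a complex that contains the factors Stat2 and Irf9 on promoters that hold an interferon-stimulated response element (ISRE).

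The promoters of 4 genes are printed because, among the gene lists described, type I interferon genes had the largest median difference between the libraries. These 4 were picked as examples among the members that hold the letters searched for, after the matches were seen. Each line gives the 250 bases before the RefSeq transcription start, on the gene's own strand, from build GRCm38.p6, and capitals mark GAAA followed by any 2 bases and GAAA again, the core of an ISRE, or the reverse complement. Isg15 lies on the minus strand at chr4:156200819-156201068, Ifit3 on the plus strand at chr19:34583279-34583528, Ifit3b on the plus strand at chr19:34607707-34607956 and Oas3 on the minus strand at chr5:120777660-120777909.
Isg15: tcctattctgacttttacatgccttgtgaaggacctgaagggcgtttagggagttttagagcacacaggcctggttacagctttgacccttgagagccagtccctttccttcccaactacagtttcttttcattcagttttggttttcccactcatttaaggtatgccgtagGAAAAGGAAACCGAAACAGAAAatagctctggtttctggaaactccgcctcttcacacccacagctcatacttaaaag
Ifit3: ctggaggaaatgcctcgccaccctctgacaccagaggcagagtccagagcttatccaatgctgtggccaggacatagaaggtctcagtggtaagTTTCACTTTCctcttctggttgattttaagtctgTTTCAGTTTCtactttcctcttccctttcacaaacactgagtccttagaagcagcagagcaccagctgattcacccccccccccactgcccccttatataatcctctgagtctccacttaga
Ifit3b: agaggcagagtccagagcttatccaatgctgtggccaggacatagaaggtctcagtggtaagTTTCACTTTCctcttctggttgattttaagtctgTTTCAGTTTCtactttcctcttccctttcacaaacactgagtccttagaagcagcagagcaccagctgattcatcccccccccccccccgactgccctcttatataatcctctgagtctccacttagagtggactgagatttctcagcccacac
Oas3: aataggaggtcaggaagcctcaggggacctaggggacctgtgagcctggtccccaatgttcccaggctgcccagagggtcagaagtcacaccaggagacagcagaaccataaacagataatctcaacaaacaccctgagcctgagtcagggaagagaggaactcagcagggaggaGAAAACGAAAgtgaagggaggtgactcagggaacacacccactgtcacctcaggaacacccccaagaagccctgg
Isg15 held 3 overlapping matches, the first starting 78 bases before the start site, Ifit3 and Ifit3b held 2 each and Oas3 held 1. The stretch around both matches was alike in Ifit3 and Ifit3b, which are near-identical neighbours whose reads may have been split between them. Over all 28 measured members of the type I interferon list, RefSeq promoters were matched for 23, and 12 of these genes (52.2%) held the letters on either strand, overlapping matches counted. The other 11 held none in this window, among them Ifit2 and Irf7. Among all 27025 genes with a promoter in the table, 936 (3.46%) held them. The interferon gamma list had them in 10 of 19 genes (52.6%), a share like that of the type I list. The class II presentation list had them in 1 of 11 genes (9.09%), and oxidative phosphorylation in 1 of 59 (1.69%). A match is a description of the letters and shows no binding.

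The label was checked against markers that the rule did not use, as CPM, the UMIs of a gene scaled to a total of 1000000 per gate. Each type of cell used for comparison was gated on its own markers: 176 wildtype and 118 Glut5 KO cDC1, 180 and 187 migratory dendritic cells, 48 and 96 plasmacytoid dendritic cells, 1029 and 1050 monocytes, 2928 and 4549 class II macrophages and 269 and 559 T cells. Clec10a, the gene of a galactose-binding lectin, stood at 345 CPM in wildtype and 337 in Glut5 KO cDC2, against 32.3 and 29.4 in cDC1 and 17.8 and 34.3 in monocytes. Its neighbour Mgl2 stood at 259 and 249.7, against 28.0 and 19.6 in cDC1. Kmo, an enzyme of tryptophan breakdown, was at 177 and 224 in cDC2 but at a like level of 163 and 215 in plasmacytoid cells. Napsa, an aspartic protease, was at 1345 and 1243, against 422 and 531 in cDC1 and 345 and 342 in monocytes.

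Transcription factors separated the cells from both cDC1 and monocytes. Irf4 was at 59.98 and 40.1 CPM in cDC2 and at 3.82 and 6.75 in cDC1, while Irf8 was at 264 and 216 in cDC2 and at 2087 and 1626 in cDC1. Zbtb46, a factor of conventional dendritic cells, was at 47.3 and 53.2, against 6.04 and 5.25 in monocytes. Lyz2, the lysozyme gene of myeloid cells, was at 575 and 643, against 9619 and 6635 in monocytes and 572 and 275 in T cells, which do not make it. Its level in wildtype cDC2 was thus no higher than this background, while in Glut5 KO cDC2 it stood above it.

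**Figure D1:**
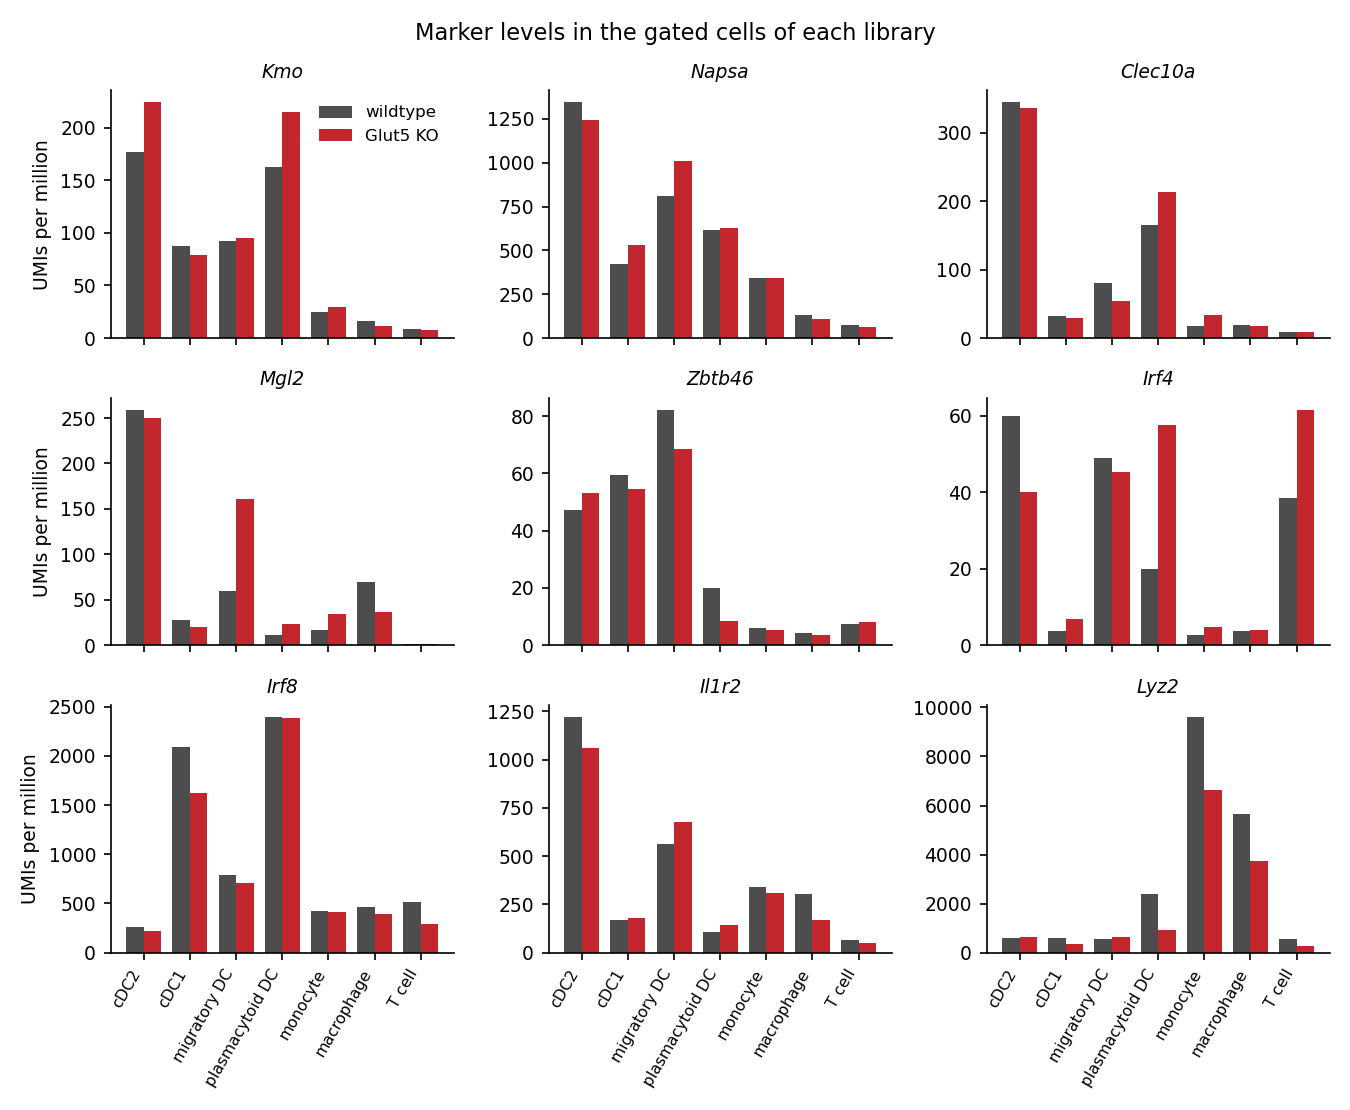
Bars give the CPM of 9 genes (vertical axes, each from 0) summed over the gated cells named on the horizontal axis, in grey for wildtype and red for Glut5 KO. Clec10a, Mgl2 and Napsa stood highest in cDC2 (345, 259 and 1345 CPM in wildtype), Irf8 in cDC1 and plasmacytoid cells, Il1r2 in cDC2 and Lyz2 in monocytes and macrophages.

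The label thus fitted its markers. Genes reported for subsets of cDC2 were unevenly detected. Of the 13 listed genes of the Notch-dependent branch (cDC2A), 3 were at 0 in wildtype and 2 in Glut5 KO cDC2, and 8 were under 20 CPM in each. Esam and Dtx1, which mark that branch, were at 0 UMIs in both libraries, which allows up to 2.53 and 2.31 CPM. Tbx21 was at 29.6 and 23.9 CPM, against 139 and 137 in T cells. The 13 listed genes of the other branch (cDC2B), among them Clec10a and Mgl2, summed to 3222 and 3295 CPM. The same list summed to 14210.5 and 11984 in monocytes, which share Lyz2, Ly6c2 and Csf1r with it and were gated in part on Ly6c2.

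The cells were not all alike in the genes that chose them. In wildtype, 57 cells had Cd209a without Flt3, 43 had Flt3 without Cd209a and 36 had both, and in Glut5 KO the numbers were 52, 43 and 41. The summed 14 monocyte markers stood at 3978 and 4863 CPM in the cells with Cd209a alone, and at 2211 and 2482 in those with Flt3 alone. Ly6c2, a surface protein of inflammatory monocytes, followed at 734 and 922 against 166 and 285 CPM. The 19 shared conventional dendritic cell genes summed to 2275 and 2493 CPM in cells with Cd209a alone and 3389 and 3420 in cells with Flt3 alone, where Flt3 itself is a member of the list.

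Cells just inside the threshold, with 2 UMIs of Cd209a and Flt3, numbered 45 in each library. Their Clec10a level was 220 and 266 CPM and their Lyz2 level 714 and 325, and the 18 macrophage markers summed to 748 and 929. Cells just outside, with 1 UMI and all other conditions met, numbered 106 and 109, with Clec10a at 152 and 142, Lyz2 at 971 and 809 and macrophage markers at 1651 and 1426. The cells outside thus held more macrophage transcripts in both libraries. The threshold leaves out some cells with cDC2 genes, and Napsa at 1207 and 1187 CPM in the cells outside was near its level inside.

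Set beside the mean of cDC1, migratory and plasmacytoid dendritic cells, cDC2 had 58 of 4143 measured genes at least 2-fold higher in both libraries (1.4%) and 302 at least 2-fold lower (7.29%). The rule chose the cells on these same transcripts, so these are descriptions. Ifitm1, an interferon-inducible membrane protein, was at 3295 and 2628 CPM in cDC2, 1449 and 1089 in migratory cells and 139 and 363 in cDC1. Siglece and Cd300a, inhibitory receptors of myeloid cells, were at 130.1 and 122 CPM and at 270.3 and 236, against 10.6 and 13.5 and 18.7 and 32.5 in cDC1. Ccr1, a receptor for CCL3 and CCL5, was at 245 and 247 CPM against 28.0 and 22.1 in cDC1. Wfdc17, Ifitm6, Dab2, Dcstamp, Ctnnd2 and Mgl2 made up the rest of the 10 highest genes.

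Of 25 measured cDC2 genes outside the rule, 10 were at least 2-fold higher in both libraries, against 1.4% of all genes, and 3 were lower. The 10 were Clec10a, Mgl2, Itgam, Epcam, Cd300a, S100a4, Il1r2, Ffar2, Tnip3 and Cfp. Il1r2, the decoy receptor that binds interleukin 1 without signalling, was at 1222 and 1062 CPM, against 169 and 181 in cDC1 and 564 and 675 in migratory cells. Its ligand gene Il1b was at 3437 and 3174 CPM in cDC2. Markers of the other types were low: 9 of 11 cDC1 genes, 11 of 13 migratory genes and 10 of 11 plasmacytoid genes were at least 2-fold lower, against 7.29% of all genes. Ccr9 and Ly6d are among the 10 plasmacytoid genes. The plasmacytoid gate asked for either of them, so their order was in part set by that gate. Il12b, a subunit of interleukin 12, had 1 UMI in wildtype cDC2 and 0 in Glut5 KO, while migratory cells had 351 and 277 CPM.

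The share of cDC2 among all barcodes that passed the filters was 1.19% [0.995 to 1.40] in wildtype and 1.12% [0.943 to 1.33] in Glut5 KO. As a share of all gated dendritic cells it was 25.2% [21.6 to 29.1] of 540 cells and 25.3% [21.7 to 29.2] of 537 cells. The log2 ratio of the shares was -0.08 [-0.43 to 0.28] among barcodes and 0.01 [-0.35 to 0.36] among dendritic cells, so a difference was not detectable at this number of cells. Slc2a5 itself had 0 UMIs in cDC2 of both libraries, and over all passing barcodes it had 384 UMIs in wildtype and 1 in Glut5 KO. The cells described here therefore show no detectable Glut5 transcript in either genotype, with limits of 2.53 and 2.31 CPM.

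Female, male and uncalled cells were unevenly spread. In wildtype cDC2, 44 cells were female, 40 male, 1 carried both kinds of transcript and 51 had neither. In Glut5 KO, 59 were female, 30 male, 4 carried both and 43 had neither. Since the libraries pool sexes in different proportions, many differences below are given within female and male cells too. Those without such values are over all cells and may not hold in both sexes. Median UMIs were 9210.5 and 10217 in female cells, 9183 and 9340.5 in male cells and 6340.0 and 7976 in cells with no call. Of all passing barcodes, 185 sequences occurred in both libraries, and 0 of them were cDC2 in both.

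Between the libraries, 320 of 5126 measured genes were at least 1.5-fold higher in Glut5 KO cDC2 (6.24%) and 199 at least 1.5-fold lower (3.88%), with a median log2 ratio of 0.00. Counts past this threshold in the lists below are read against those shares.

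Interferon-induced genes were the list furthest from 0. Of 28 measured type I interferon genes, 19 were at least 1.5-fold higher in Glut5 KO and 0 lower, against 6.24% and 3.88% of all genes, with all 28 above 0 and a median log2 ratio of 0.81. The list summed to 7505 CPM in wildtype and 11650.3 in Glut5 KO. The difference was in the female cells and in those with no call: the sum went from 6011 to 13763 CPM in female cells, from 9239 to 13432 in uncalled cells and from 7497 to 6132 in male cells. The median over members was 1.40 in female cells, with 28 of 28 above 0, and -0.29 in male cells, with 7 of 28 above 0.

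Ifit2 and Ifit3, whose proteins bind RNA and restrict viral translation, were among the members that differed most. Ifit2 had 142 UMIs (120.0 CPM) in wildtype and 401 (309 CPM) in Glut5 KO cDC2, a log2 ratio of 1.36 [1.09 to 1.65]. In female cells it went from 106 to 417 CPM, in uncalled cells from 112 to 328 and in male cells from 143 to 111. Ifit3 went from 188 to 444 CPM over all cells, from 111 to 529.7 in female cells and from 244 to 164 in male cells. After each cell was thinned to 2000 UMIs, 15.4% of wildtype and 33.3% of Glut5 KO cDC2 held Ifit2, against 8.43% and 7.52% of T cells. Unthinned shares were 36.0% and 54.4% of cDC2.

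Isg15, a ubiquitin-like protein that is attached to other proteins under interferon, was at 1431 and 2255 CPM, a log2 ratio of 0.66 [0.57 to 0.74]. Female cells had 994 CPM in wildtype and 2878 in Glut5 KO, while male cells had 1661 and 1179.9. The factor Irf7, which amplifies interferon production, was at 764 and 1437 CPM over all cells, and at 602 and 1797 in female and 680.2 and 558 in male cells. Thus the wildtype male cells stood above the wildtype female cells for Isg15, and the order was the other way round in Glut5 KO. Oas3, an enzyme that makes the signal molecule of the RNA-degrading pathway, was at 40.5 and 100.2 CPM with log2 ratios of 2.31 in female and 0.45 in male cells. The smallest differences in the list were in Oas1a, at 157 and 199 CPM, and Ifi27l2a, at 1325 and 1396.

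Single cells varied widely. The type I list held a median of 59.2 UMIs per 10000 in wildtype cDC2 (2.09 to 396) and 91.3 in Glut5 KO (6.59 to 536), so the libraries overlapped over most of their range. In female cells the medians were 46.1 and 99.2, in male cells 50.2 and 47.6 and in uncalled cells 85.0 and 104. By rule gene, cells with Cd209a alone summed to 10471 CPM in wildtype and 15301 in Glut5 KO, and cells with Flt3 alone to 4741 and 8577. Cells with Cd209a alone made up 27.3% and 37.3% of female cells and 45.0% and 46.7% of male cells. The difference between the libraries was thus seen in both kinds of cell, with the higher level in the cells that also held more monocyte transcripts. The part of monocyte transcripts in the result was not tested.

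**Figure D2:**
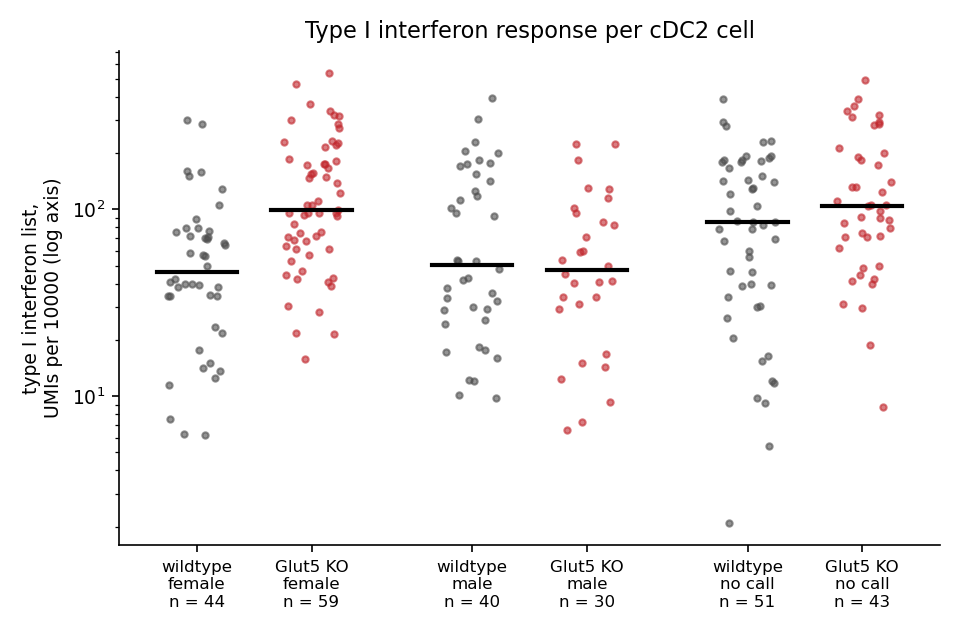
Each point is 1 cDC2, with UMIs of the type I interferon list per 10000 UMIs on a log axis, split by sex call and library, and bars give medians. Female cells of the Glut5 KO library lie above those of wildtype (medians 99.2 and 46.1) with much overlap, and male cells do not (47.6 and 50.2).

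Genes induced by interferon gamma, a cytokine of T and NK cells, moved in the same cells. Of 24 measured, 8 were at least 1.5-fold higher in Glut5 KO and 0 lower, with a median of 0.49 over all cells, 1.17 in female and -0.50 in male cells. The guanylate-binding protein gene Gbp2, which acts against intracellular microbes, was at 169.8 and 264 CPM (0.63 [0.38 to 0.89]), with log2 ratios of 1.63 in female and -0.60 in male cells. Ifngr1, the ligand-binding chain of the interferon gamma receptor, went the other way, from 506 to 345 CPM (-0.55 [-0.73 to -0.37]). Ifngr1 was at -0.81 in female and 0.24 in male cells. Its partner chain Ifngr2 was at 164 and 154 CPM. Ifnb1, a ligand gene of the type I interferon family, was found in 0 of 136 thinned wildtype cDC2 and in 0.741% of 135 Glut5 KO cDC2.

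**Figure D3:**
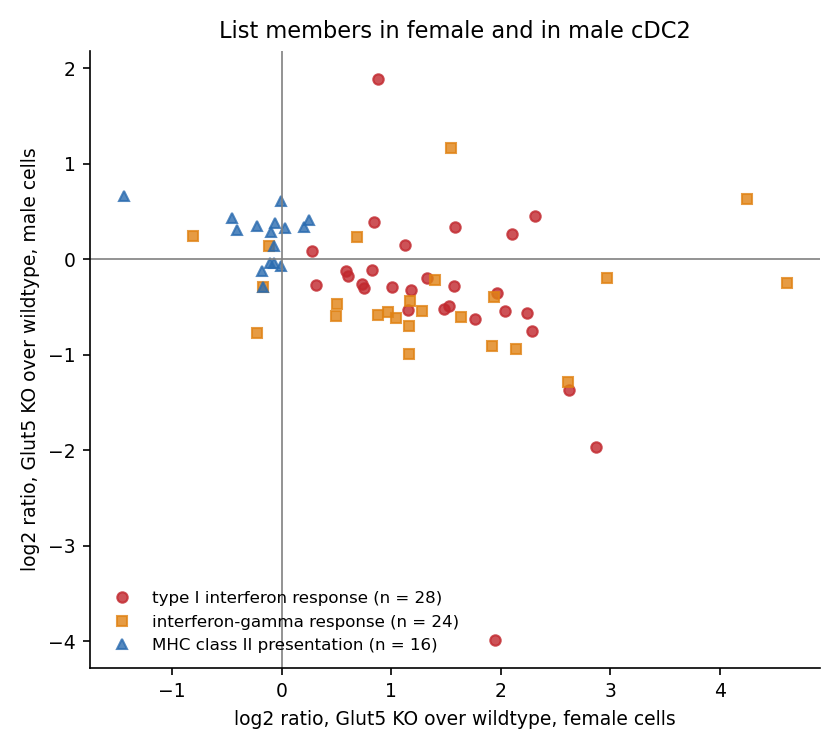
Each point is 1 gene, with its log2 ratio of Glut5 KO over wildtype in female cDC2 on the horizontal axis and in male cDC2 on the vertical axis. All 28 type I interferon genes lie right of 0 and 7 of them lie above 0. Of the 16 class II presentation genes, 3 lie right of 0 and 11 lie above 0, with Ctsl at -1.44 in female cells.

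The same list was set beside the other gated cells. The summed type I list had a log2 ratio of 0.63 [0.60 to 0.67] in cDC2, 0.53 in cDC1, 0.38 in monocytes, 0.39 in class II macrophages, 0.42 in T cells, 0.12 in plasmacytoid and -0.01 in migratory dendritic cells. Median ratios over members were 0.81 in cDC2, 0.46 in cDC1, 0.51 in monocytes, 0.58 in macrophages, 0.04 in T cells, 0.01 in migratory cells and -0.11 in plasmacytoid cells, where sum and median differed in sign, as they did in migratory cells. The female ratio stood above the male ratio in every gate but T cells, and male ratios were -0.29 [-0.38 to -0.20] in cDC2, -0.35 in migratory cells and -0.10 in monocytes. The higher level in the Glut5 KO library was therefore not seen in cDC2 alone, and the difference between gates was not tested.

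**Figure D4:**
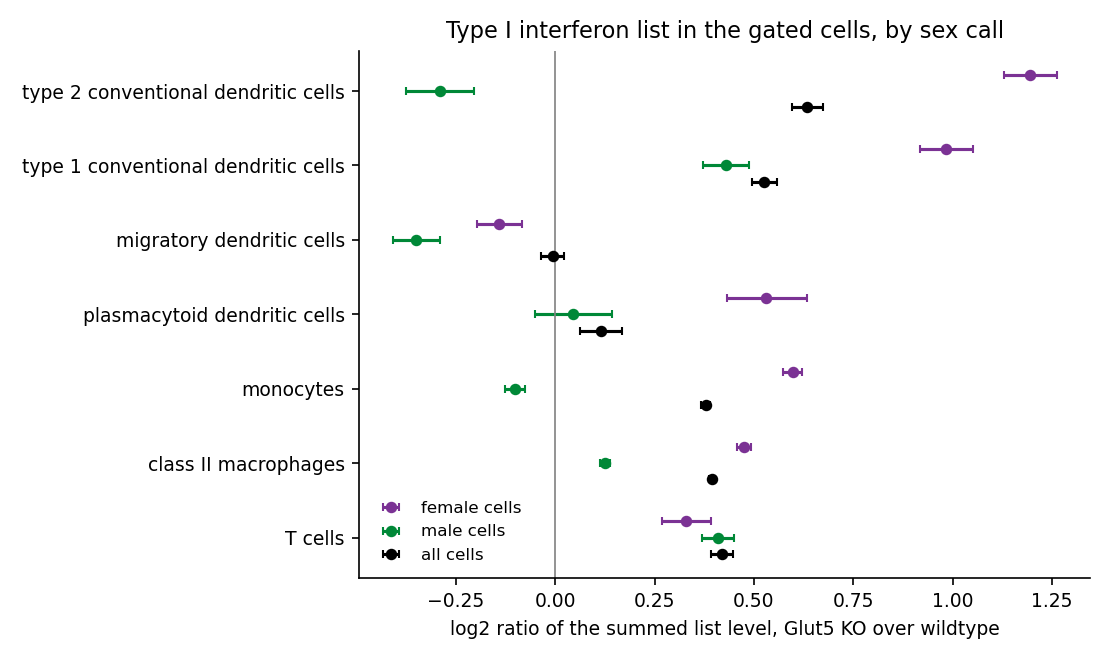
Points give the log2 ratio of the summed type I interferon list, Glut5 KO over wildtype, in female, male and all cells of each gate, and bars give exact 95% counting intervals. The cDC2 row runs from -0.29 in male to 1.20 in female cells, the widest gap between the sexes among the 7 gates.

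Chemokine genes split. Of 11 measured, 4 were at least 1.5-fold higher in Glut5 KO cDC2 and 2 lower, with a median of 0.19. Cxcl9 and Cxcl10, whose proteins draw T and NK cells through the receptor CXCR3, went from 68.4 to 221 CPM (1.69 [1.33 to 2.07]) and from 479 to 977 CPM (1.03 [0.88 to 1.17]). Cxcl9 had 6 UMIs in wildtype female cells (14.8 CPM) against 305 CPM in Glut5 KO, and went from 106 to 164 CPM in male cells. Cxcl10 went from 41.9 to 1054 CPM in female and from 818 to 690.1 in male cells. After thinning, 9.56% and 21.5% of cDC2 held Cxcl9, against 1.61% and 1.25% of T cells, while 18.4% and 24.4% held Cxcl10, against 14.1% and 14.0% of T cells.

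Ccl4, a chemokine that draws T cells and monocytes, was higher in Glut5 KO, at 505 and 775 CPM (0.62 [0.47 to 0.77]), with a single cell holding 17.1% and 21.5% of its UMIs. Ccl17, which draws CCR4-bearing T cells and is also listed as a migratory dendritic cell gene, was lower, at 118 CPM in wildtype and 32.4 in Glut5 KO (-1.86 [-2.40 to -1.36]). That difference lay in female cells, at 153 and 26.8 CPM, and in uncalled cells, at 154 and 13.9, and male cells had 54.2 and 75.1. Ccl17 was lower in Glut5 KO in other gates too, at 22.9 and 9.20 CPM in cDC1 and 365 and 301 in migratory cells. Monocytes had 9.40 and 4.43 CPM, macrophages 8.07 and 2.74 and T cells 8.64 and 3.98. Cxcl2, which draws neutrophils, was at 82.8 and 44.7 CPM in 9 cells of each library, and a single cell held 41.8% and 41.4% of its UMIs. Ccl5 was at 399.6 and 455 CPM.

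Class II antigen presentation genes differed little between the libraries. Of 16 measured genes, 0 passed 1.5-fold in either direction and the median was 0.03, but 4 of them are the genes on which the rule set a minimum. Among the other 12, an alternative chosen after seeing the data, 0 passed 1.5-fold and the median was 0.017. Among those that were not in the rule, H2-Oa, which restrains peptide loading, was at 456 and 609 CPM (0.42 [0.26 to 0.58]). H2-DMb2, part of the peptide-loading complex, was at 569 and 706 CPM (0.31), H2-DMb1 at 1243 and 1135 (-0.13) and Ciita, the master regulator of class II genes, at 128 and 134 (0.07 [-0.25 to 0.40]). Cathepsin L (Ctsl) was at 59.1 and 44.7 CPM. The medians over the 12 genes were -0.14 in female and 0.32 in male cells. Class I presentation had 4 of 24 genes past 1.5-fold upward and 0 downward (median 0.14), led by H2-Q4 (0.75) and Nlrc5 (0.62), the class I transactivator. The class I median was 0.37 in female cells, with 22 of 24 genes above 0, and -0.17 in male cells, with 7 above 0. H2-Q and H2-T genes have near-identical copies, so their values are uncertain by the way reads were assigned.

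Of 15 costimulatory and inhibitory ligand genes, 2 passed 1.5-fold upward and 0 downward. Cd40, which receives help from CD4 T cells, was at 99.7 and 169 CPM (0.76 [0.43 to 1.10]), with 56.8 and 168 in female cells and 148 and 129 in male cells. Lgals9, the gene of galectin-9, was at 255 and 386 CPM (0.60), with 0.76 in female and -0.0031 in male cells. Cd86, the main CD28 ligand of resting cells, was at 415 and 505 CPM (0.28), and its thinned shares were 52.2% and 45.9% of cells, an order against that of the level, so neither is read as a difference. Cd80, which binds the same receptors, was at 98.0 and 72.4 CPM (-0.43 [-0.84 to -0.03]), and Cd274, the gene of PD-L1, at 153 and 134. Activation genes thus did not move together.

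**Figure D5:**
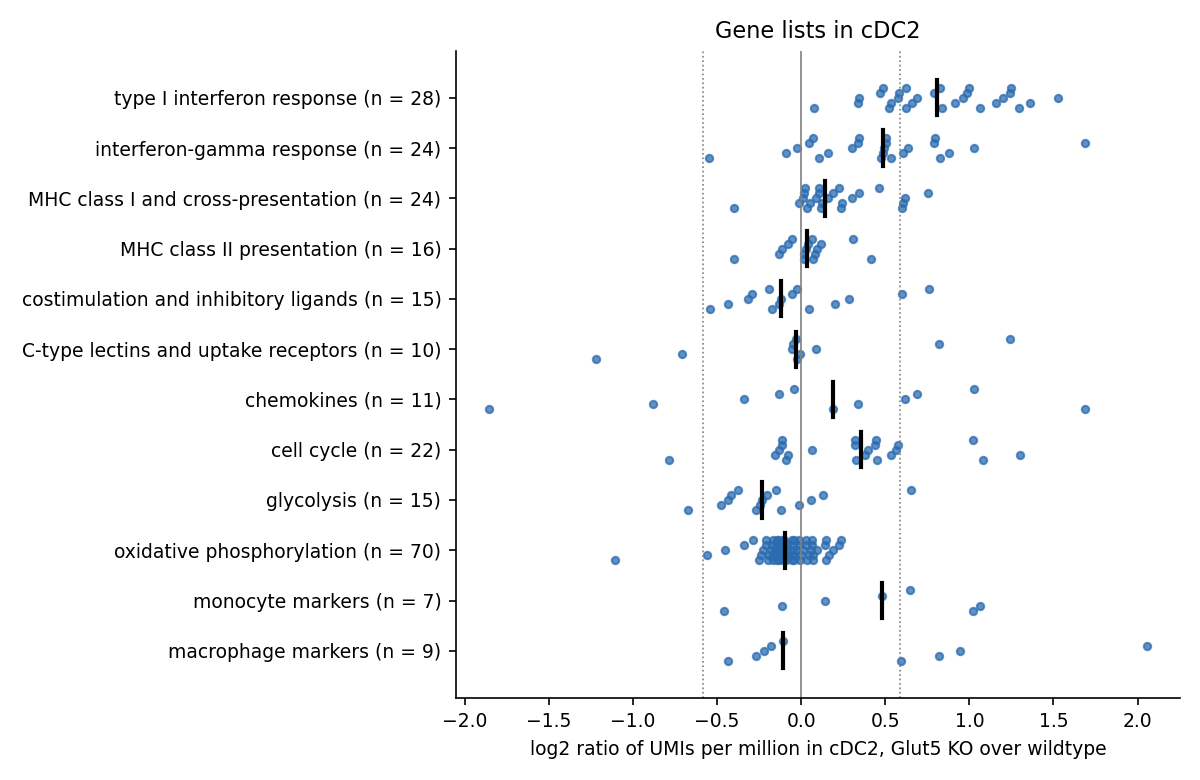
Each point is 1 measured gene of the list at left, with its log2 ratio of Glut5 KO over wildtype in cDC2 on the horizontal axis, black bars are list medians and dotted lines mark 1.5-fold. The type I interferon list lies furthest right (median 0.81), the class II list at 0.03 and oxidative phosphorylation at -0.10, with Ndufs5 its lowest member at -1.10.

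Receptors for antibody-coated antigen differed in opposite directions. Fcgr1, the high-affinity IgG receptor, was at 153 and 271 CPM (0.82 [0.56 to 1.09]), with 126 and 283 in female, 189.8 and 161 in male and 145 and 367 in uncalled cells. Fcgr2b, the inhibitory IgG receptor, was at 137 and 58.6 CPM (-1.22 [-1.64 to -0.82]), with 123 and 45.3 in female, 96.1 and 85.8 in male and 201 and 58.4 in uncalled cells. Fcgr3, an activating receptor of lower affinity, was at 97.1 and 59.3 CPM (-0.71). Fcgr2b was found in 27.2% of thinned wildtype and 8.15% of Glut5 KO cDC2, against 7.63% and 2.92% of T cells, and Fcgr1 in 27.9% and 35.6%, against 5.22% and 3.76%. Fcgr2b was lower in Glut5 KO also in cDC1, at 43.3 and 13.5 CPM, plasmacytoid cells, at 191 and 95.7, and T cells, at 62.8 and 19.7. It was lower by less in monocytes, at 551 and 459 CPM, and macrophages, at 633 and 548. In migratory cells it was near level, at 68.7 and 66.3. The lectins that mark cDC2 held level: Clec10a had a log2 ratio of -0.03 [-0.23 to 0.16] and Mgl2 of -0.05 [-0.28 to 0.18].

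Among 24 measured cDC2 genes, 1 passed 1.5-fold upward, the short-chain fatty acid receptor gene Ffar2 (38.9 and 66.3 CPM), and 0 downward, and the median was -0.05. Irf4 was at a log2 ratio of -0.58 [-1.13 to -0.05] and Cd7, a surface protein also found on T cells, at -0.51 [-0.76 to -0.25]. Among 22 genes of growth factor signalling, Socs1, an inhibitor of cytokine signalling, was at 56.6 and 98.7 CPM (0.80), and Il6ra, the interleukin 6 receptor chain, at 42.2 and 20.04 (-1.06 [-1.82 to -0.36]). The receptors for GM-CSF, Csf2ra and Csf2rb, were at -0.02 and -0.20.

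Markers of other cells were present at low levels, and their lists did not move alike. T and NK cell markers summed to 94.6 CPM in wildtype and 92.5 in Glut5 KO cDC2, microglia markers to 682 and 661, B and plasma cell markers to 349 and 306 and neutrophil markers to 1247 and 1079. The neutrophil sum was mostly Il1r2, described above as a cDC2 gene, and 8 of the 9 neutrophil genes were under 20 CPM in each library. The 14 monocyte markers summed to 2990 CPM in wildtype and 3625 in Glut5 KO cDC2, against 11735 and 12228 in monocytes, and 3 of the 14 were at 0 in wildtype cDC2 and 0 in Glut5 KO. The monocytes were gated on Ly6c2 and Chil3, which are in this list, so part of that gap was set by the gate. Of the 7 monocyte markers measured, 3 passed 1.5-fold upward, among them Gda and Ly6c2 (393 and 614 CPM). Thinned shares for Ly6c2 were 20.6% and 34.8%, against 56.6% and 44.1% of T cells, which can also make it. The sums by sex were 3227 and 3891 CPM in female and 2472 and 2792 in male cells. The 18 macrophage markers summed to 922 and 1071 CPM, against 42171 and 40510 in macrophages, with 2 and 1 of them at 0 in cDC2. The gates themselves separate cDC2 and macrophages by C1q, and without the C1q genes the sums were 747 and 926 CPM in cDC2 and 20312 and 19345 in macrophages. Of 9 measured, 4 passed 1.5-fold upward, the other 5 had ratios below 0, and the median was -0.11. C1q genes are among those 5, and the rule set a maximum on them. Their ratios and the list median are therefore not read as a difference. Apoe, Fcgr1 and Cd63 were among the higher genes, where 1 cell held 57.5% of the Glut5 KO UMIs of Apoe, and C1qb (-0.27) and C1qc (-0.43) were among the others. The part of these cells or of free RNA in the interferon and Fc receptor results was not tested.

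Dcstamp had the highest ratio among the 24 genes named by rule. This gene, whose protein is needed for osteoclast precursors to fuse, had 74 UMIs (62.5 CPM) in wildtype and 469 (361 CPM) in Glut5 KO, in 18 and 64 cells. The log2 ratio was 2.52 [2.18 to 2.91], with 2.38 in female and 2.52 in male cells. It was also higher in Glut5 KO in the other gates, at 9.76 and 77.3 CPM in cDC1, 6.80 and 166 in migratory cells, 1.85 and 96.9 in monocytes and 11.8 and 103 in macrophages. Named genes were kept only with the same sign in female and male cells, so that agreement is set by the choice. The difference was present in each of the gates given here.

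The rest of the 12 highest were Il1rn, Apod, Cxcl9, Ifi204, Oas3, Phf11d, Ifi211, Zbtb20, Pglyrp1, Isg20 and Txnl4a. Il1rn, the interleukin 1 receptor antagonist, was at 21.96 and 81.7 CPM (1.87 [1.27 to 2.57]), but 1 cell held 50.0% of its wildtype UMIs. Ifi204 and Ifi211, DNA-sensing family members with close copies on chromosome 1, were at 38.9 and 121 CPM and at 79.4 and 187, with ratios of 1.93 and 1.68 in female and 0.94 and 0.25 in male cells. Apod, the gene of a lipid-binding protein, was at 32.1 and 116 CPM, with ratios of 1.55 in female and 0.11 in male cells. Zbtb20, a transcription repressor, was at 42.2 and 89.4 CPM (1.07 [0.59 to 1.59]).

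The 12 lowest were Ctnnd2, Pltp, Hhex, Fcgr2b, Med30, Mt1, Ndufs5, March2, Sh3bgrl3, Nop56, Nsd1 and Cxcl2. Ctnnd2, the gene of delta-catenin, was at 87.0 CPM in 53 wildtype cells and 23.9 CPM in 23 Glut5 KO cells (-1.85 [-2.49 to -1.27]), with -2.06 in female and -2.24 in male cells. It was one of the 10 genes highest in cDC2 among dendritic cells, and in Glut5 KO it was lower in the other gates too, where monocytes had 10.4 and 2.30 CPM and cDC1 7.22 and 0. Pltp, which moves phospholipids between lipoproteins, was at 153 and 46.2 CPM (-1.72), while macrophages had 368 and 388. Hhex, a homeobox factor, was at 102 and 37.8 CPM (-1.43), and Mt1, a zinc-binding metallothionein, at 845 and 368 (-1.20 [-1.36 to -1.04]).

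Several of the lower genes were lower in every gate. Sh3bgrl3, at 2280.0 and 1159.9 CPM in cDC2 (-0.97 [-1.07 to -0.88]), lies on chromosome 4, 15.99 Mb from Slc2a5, and ratios in the other gates ran from -0.64 to -1.34. Ndufs5, a subunit of respiratory complex I, at 151 and 70.1 CPM (-1.10), lies 26.4 Mb from Slc2a5 and had ratios of -1.20 to -0.53 in the other gates. Cep85, named after its value was seen, was at 55.7 and 6.17 CPM (-3.10) and was at -1.55 to -3.67 elsewhere. Dcstamp, Ctnnd2 and Med30 all lie on chromosome 15. The differences of Sh3bgrl3, Ndufs5 and Cep85 were thus seen outside cDC2 as well.

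Metabolic lists had medians a little below 0. Oxidative phosphorylation had 0 of 70 genes past 1.5-fold upward and 1 downward, Ndufs5, with a median of -0.10. Glycolysis had 1 of 15 upward (Hk2, at 25.3 and 40.1 CPM) and 1 downward (Aldoc, at 32.1 and 20.04), with a median of -0.23 [-0.40 to -0.06], and 4 of the 15 had intervals wholly below 0 and 0 wholly above. Of these, Eno1 was at -0.48 [-0.75 to -0.21] and Aldoa at -0.37 [-0.52 to -0.23], while Ldha was at -0.12 [-0.24 to 0.00203]. The glycolysis median was -0.0039 in female cells, with 7 of 15 genes above 0, and -0.34 in male cells, with 2 above 0. Of 9 measured fructose and polyol genes, Khk, the enzyme that phosphorylates fructose, was at 54.1 and 43.2 CPM (-0.32 [-0.87 to 0.22]). Slc2a1, the glucose transporter gene, was at 85.3 and 97.1 CPM (0.19 [-0.20 to 0.58]). Of 15 lipid genes, 2 passed 1.5-fold upward and 3 downward, with a median of -0.18. Apoe (0.95, with 1 cell holding 57.5% of its Glut5 KO UMIs) and the lipid droplet gene Plin2 (0.63) were higher, and Fabp5, a fatty acid carrier, was lower at 115 and 43.2 CPM (-1.40), where 1 wildtype cell held 65.4% of the UMIs. The cholesterol synthesis genes Hmgcs1, at 50.7 and 29.3 CPM (-0.78 [-1.42 to -0.18]), and Idi1, at 38.9 and 25.4 (-0.61 [-1.30 to 0.06]), were the other 2. The thinned shares of Fabp5, at 4.41% and 7.41%, were below those of T cells, at 10.4% and 8.35%.

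Cell cycle genes were higher in 3 of 22 cases and lower in 1, with a median of 0.35. Cells with at least 10 UMIs per 10000 of this list numbered 33 (24.3%) in wildtype and 40 (29.4%) in Glut5 KO. Among female cells 10 of 44 and 23 of 59 passed that level, and among male cells 10 of 40 and 7 of 30. Mki67, a marker of dividing cells, was at 51.5 and 46.2 CPM (-0.16 [-0.69 to 0.38]), so its level did not follow the list.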

How the data were processed

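The deposited files hold whole-number counts of UMIs per gene and barcode for 1 wildtype and 1 Glut5 KO library (10x 5' kit, per the labels' protocols). The submitters' processing notes name Cell Ranger 3.1.0 and mm10, and the matrix header names 7.0.1, per the file headers. The deposited counts are not normalized. Over passing barcodes the libraries hold 116089616 and 96803335 UMIs (medians 8682 and 6523.5). The members and gene lists were chosen with earlier results of these data known. Counts were summed over the cells of each gate and library and divided by the gate's total (CPM). Log2 ratios had 0.5 added to each count, for genes with at least 50 UMIs over both libraries. Levels have exact Poisson, shares Clopper-Pearson and ratios conditional binomial 95% intervals, and a count of 0 allows 3 counts. UMIs of 1 library are not biological replicates.

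Gates used the same filters. cDC1 had at least 2 UMIs of Xcr1 and Clec9a, migratory cells at least 3 of Ccr7 and Fscn1, plasmacytoid cells at least 2 of Siglech with Ccr9 or Ly6d, monocytes at least 2 of Ly6c2 and Chil3, macrophages at least 20 C1q UMIs per 10000 with class II, and T cells at least 2 of the Cd3 genes. Doublets were kept, since the rule has no condition on them. Of the top 8% of Scrublet scores, 2 wildtype and 1 Glut5 KO cDC2 were part. Named genes were the 12 highest and 12 lowest log2 ratios with at least 100 UMIs, at least 50 CPM in 1 library and the same sign in female and male cells. Predicted, sex-linked, antigen receptor, haemoglobin, ribosomal and mitochondrial genes were left out, as were other classes' markers. For each list, the 2 top and 2 bottom members of 100 or more UMIs were named, with others for what they do, and Cep85 was picked after its value was seen. Genes set beside other dendritic cells were the 10 highest and 10 lowest. Shares of cells were taken after thinning each cell to 2000 UMIs, which left out 0 and 1 cDC2. The alternatives were no doublets, stricter or other marker thresholds, thinning, each sex alone, equal weight per cell, other filters, centring and added counts, and no dividing cells, with class II genes outside the rule added after seeing the data. Python 3.11.15, numpy 2.4.6, scipy 1.17.1, pandas 2.3.3, scanpy 1.11.5 and matplotlib 3.10.9 were used, and the ratio step was tested on simulated data.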

Additional observations from a re-analysis of the deposited data

Results flagged for a closer look

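Female and male cDC2 moved in opposite directions between the libraries for several lists and genes. With 1 library per genotype the difference between the sexes was not tested, and the female and male cells of 1 library may come from different mice. The summed type I interferon list had a log2 ratio, Glut5 KO over wildtype, of 1.20 in female and -0.29 in male cells. The interferon gamma list was at 1.10 and -0.33, and the cell cycle list at 0.71 and -1.15. Class II presentation genes went the other way by a small amount, at -0.031 and 0.28, in a sum that holds the 4 genes of the rule.

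Among single genes, Ifit3b was at 2.87 in female and -1.97 in male cells, Isg15 at 1.53 and -0.49 and Ifi27l2a at 0.32 and -0.27. The cell cycle gene Hmgb2 was at 0.81 and -0.84 and the glycolytic gene Gapdh at 0.33 and -0.30. Myeloid genes were lower in female and higher in male cells: the chemokine receptor gene Ccr2 was at -0.95 and 1.18, Cd14 at -0.72 and 0.78, the lectin gene Clec4n at -0.45 and 0.47 and Il1b at -0.29 and 0.39. Fabp5 was at -1.23 and 2.30, where wildtype male cells held 2 UMIs.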

How the results depend on the processing

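No paired analysis was possible because each genotype has 1 library. The shares of cDC2 moved by less than their counting intervals under every alternative that could be run. The oxidative phosphorylation median stayed between -0.12 and -0.06. The count of genes at least 1.5-fold higher, 320, became 720 with at least 1 UMI each of Cd209a and Flt3, 1114 after thinning, 692 in female cells, 633 in male cells and 62 with at least 200 UMIs. The count lower, 199, became 660, 1102, 534, 864 and 15 in the same order, 528 with at least 4 UMIs of Cd209a and Flt3, 127 with 5 CPM added and 348 without dividing cells. Fewer cells or genes enter all of these counts but that with 5 CPM added. The class II median of 0.03 became 0.091 with at least 4 UMIs, -0.0032 after thinning, -0.083 in female and 0.32 in male cells, and 0.017 without the genes of the rule. The cell cycle median of 0.35 became 1.45 with both rule genes and changed sign to -0.26 with at least 4 UMIs, -0.044 after thinning and -1.24 in male cells. The type I interferon median of 0.81 became 1.40 in female and -0.29 in male cells, and the interferon gamma median of 0.49 became 0.18 with at least 4 UMIs and -0.50 in male cells.

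Of 85 named genes, 84 kept their sign without the top doublet scores, 72 with at least 4 UMIs, 72 with both rule genes, 72 after thinning, 76 in female cells and 59 in male cells. Most changes of sign were in genes short of 1.5-fold or with an interval that held 0. Of those past 1.5-fold with an interval on 1 side of 0, the ones that changed sign were Pglyrp1 (-1.05) and Ube2c (-0.11) with at least 4 UMIs, Osm (-0.41) with both rule genes, Nop56 (0.61) after thinning and Cxcl2 (0.028) without dividing cells. In male cells, Ifit3b (-1.97), Ifit2 (-0.36), Cxcl10 (-0.24), Cd40 (-0.19), Lgals9 (-0.0031), Fcgr1 (-0.23), Ccl17 (0.47), Ube2c (-1.34), Plin2 (-0.45), Fabp5 (2.30) and Isg15 (-0.49) did so. The cause was not tested. Depth limits genes under about 20 CPM, where 136 cells hold few UMIs.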

Other observations

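Hypoxia genes, which cells raise under low oxygen, had 3 of 14 members at least 1.5-fold higher in Glut5 KO cDC2 and 0 lower, with a median of 0.17. The lipid droplet gene Hilpda was at 29.6 and 54.7 CPM (0.88 [0.28 to 1.52]), Ndrg1 at 32.9 and 54.7 (0.72) and Plin2 at 93.8 and 146 (0.63), while Hif1a was at 116 and 126 (0.12). Hilpda was at 2.72 in female and -0.10 in male cells.

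Pattern recognition genes had 2 of 13 higher and 0 lower. The inflammasome sensor gene Nlrp3 was at 96.3 and 153 CPM (0.67 [0.33 to 1.02]) and was higher in female (0.51) and male (1.01) cells, while Ifih1, an RNA sensor that interferon induces, was at 1.15 and -0.53. The adaptor gene Myd88 was at 152 and 156 CPM (0.03). Among tryptophan and Notch genes, 0 of 9 passed 1.5-fold: Kynu, which acts after Kmo, was at 61.7 and 84.8 CPM (0.46 [0.02 to 0.91]) and Notch2 at 40.5 and 57.0 (0.49). Feedback genes of the factor NF-kB had 0 of 20 higher and 1 lower, with a median of -0.15.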
